A study of Mus musculus with 10 samples.

Results

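The genes described here take up and burn glucose, exchange lactate, or build and break down glycogen. The 33 genes were chosen by name: 2 glucose transporters, the glycolytic enzymes with the enzymes that set the fructose 2,6-bisphosphate level, the subunits of lactate dehydrogenase, 2 lactate carriers, pyruvate dehydrogenase with its kinases, and the enzymes and phosphatase subunits of glycogen metabolism. For a gene with several transcripts, the one with most RNAseq reads on average stands for it. Of the 33 genes, 30 had a transcript in the count files, out of 13193 genes in all, and 19 passed the expression minimum that 4370 genes passed.

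Ribosome footprints (RF), the pieces of mRNA that ribosomes protect from nuclease, and RNAseq were measured in primary cultures of P0 FVB mouse cerebral cortex that hold neurons and glia. After 7 days in vitro, 3 cultures were left untreated (cultures 1 to 3) and 2 received 55 mM KCl for 3 hours (cultures 4 and 5), which depolarizes neurons. The study's methods describe a further KCl culture, left out by the authors for its small library, which is not analysed here. All 5 cultures were exposed to cycloheximide for 7 min before lysis, so this agent was common to both groups. Each culture gave 1 RNAseq and 1 RF library, 10 in all. All cells of a dish were lysed together, and therefore fewer cells of a type and less RNA per cell cannot be told apart.

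Glucose enters brain cells through facilitative transporters, is phosphorylated by hexokinase, split and oxidized to pyruvate by glycolysis, and is either reduced to lactate by lactate dehydrogenase or oxidized in mitochondria by pyruvate dehydrogenase. Glycogen, held in brain mainly by astrocytes, is a local store of glucose units that is built from UDP-glucose and released by glycogen phosphorylase. Astrocytes and neurons use different transporters and isozymes for these steps, and lactate carriers allow exchange between the cells.

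RNAseq libraries held 3056286 to 3629959 reads on transcripts and RF libraries 1463654 to 7719915, with untreated culture 3 and KCl culture 4 the shallowest in RF. The coding sequence (CDS) took 90.5 to 93.3% of RF reads and 39.3 to 42.6% of RNAseq reads. Markers of neurons, astrocytes, microglia and the oligodendrocyte lineage were all detected. A transcript was in the count files for 8 of 10 listed neuronal markers, 9 of 10 astrocyte markers and 3 of 4 fibroblast markers, and for all listed markers of the other types. None of the markers with a transcript was at 0 in all libraries.

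The level of a transcript is given in RPKM (reads scaled to transcript length and library size), over the whole transcript for RNAseq (abundance) and over the CDS for RF (ribosomal occupancy). Translational efficiency (TE) is the RF level divided by the RNAseq level in the same culture. The expression minimum was an RPKM of 10 in both assays in at least 2 cultures, scaled there to all reads of a library. The levels printed below are scaled to normalised reads on the measured transcripts and are somewhat higher. The call threshold was an adjusted p of 0.05 over 7262 measured transcripts.

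The sequences around the start codon are shown for the members whose TE or abundance result stands out below, because the bases next to the start codon are where initiating ribosomes select it. They are GENCODE M21 transcripts on GRCm38, with 9 bases before the start codon, and the capitals mark the start codon.
Slc2a3: gttgggaccATGggg
Tpi1: gagaggcagATGgag
Ugp2: gatcctaaaATGtcg
Ppp1r3c: ctcggtccaATGagc
Pfkfb3: gctacgaagATGccg
Slc2a3 alone of these had a purine at the third base before the start codon together with G directly after it. That combination was present in 6 of the 19 measured members and in 43.3% of 7111 measured transcripts with a 5′UTR sequence. The 5′UTR of Slc2a3 was 355 nt long with 3 upstream ATG triplets, that of Tpi1 was 24 nt, that of Ugp2 272 nt, that of Ppp1r3c 87 nt and that of Pfkfb3 401 nt, and none of the last 4 held an upstream ATG. Over the measured members the median 5′UTR was 124 nt and 5 of 19 (26.3%) held an upstream ATG, against a median of 177 nt and 51.1% over the measured transcripts.

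Without KCl, the measured members were mostly abundant transcripts. In 14 of 19 the abundance was above the median of the measured transcripts (27.1 RPKM), in 15 the RF level was above the median of 50.5 RPKM, and in 13 the TE was above the median of 1.81. The median member had 51.8 RPKM in RNAseq, 119 RPKM in RF and a TE of 2.48. The expression minimum was part of how the 19 were reached, and these counts hold for the members that passed it.

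In RNAseq the most abundant measured member was Pkm, the pyruvate kinase gene, with 235 RPKM ± 21.6 (SD, n = 3). It was followed by the triosephosphate isomerase gene Tpi1 with 180 RPKM ± 13.6 and by Ldhb, the heart-type lactate dehydrogenase subunit, with 163 RPKM ± 13.7. The ranges of Tpi1 and Ldhb over the cultures overlapped, while Pkm stood above both. Slc16a1, Gpi1, Slc2a1, Pygb and Ppp1r3c formed a run between 101 and 119 RPKM in which each overlapped its neighbour. The least abundant was Slc2a3 with 11.03 RPKM ± 1.51. This order leaves out Ldha, the other lactate dehydrogenase subunit, which was not measured because no read fell on its CDS. The RNAseq level of Ldha was 349 RPKM ± 49.0, above that of Pkm.

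In RF the order was different. Slc16a1, which encodes the monocarboxylate carrier MCT1, had 904 RPKM ± 32.0 (SD, n = 3), at percentile 98.9 of the measured transcripts. Ldhb followed with 400 RPKM ± 22.9, and Pygb, the brain form of glycogen phosphorylase, with 265 RPKM ± 12.8, and none of these ranges overlapped. The lowest RF level was that of Pfkfb2, a 6-phosphofructo-2-kinase/fructose-2,6-bisphosphatase, with 20.9 RPKM ± 0.391.

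The TE of the members spanned from 7.64 ± 0.754 for Slc16a1 to 0.241 ± 0.0490 for Pkm (SD, n = 3). Slc2a3 (5.71 ± 0.429) and the hexokinase gene Hk1 (4.09 ± 0.221) came next after Slc16a1, and these 3 ranges did not overlap. Pfkp, Ugp2 and Pfkfb3 lay between 3.69 and 3.93 and overlapped one another in the order of levels. At the low end, the glucose-6-phosphate isomerase gene Gpi1 had a TE of 0.756 ± 0.106, and only Pkm was lower. Both low values, and the standing of several other members, depended on which RNAseq reads were used, as given below.

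**Figure D1:**
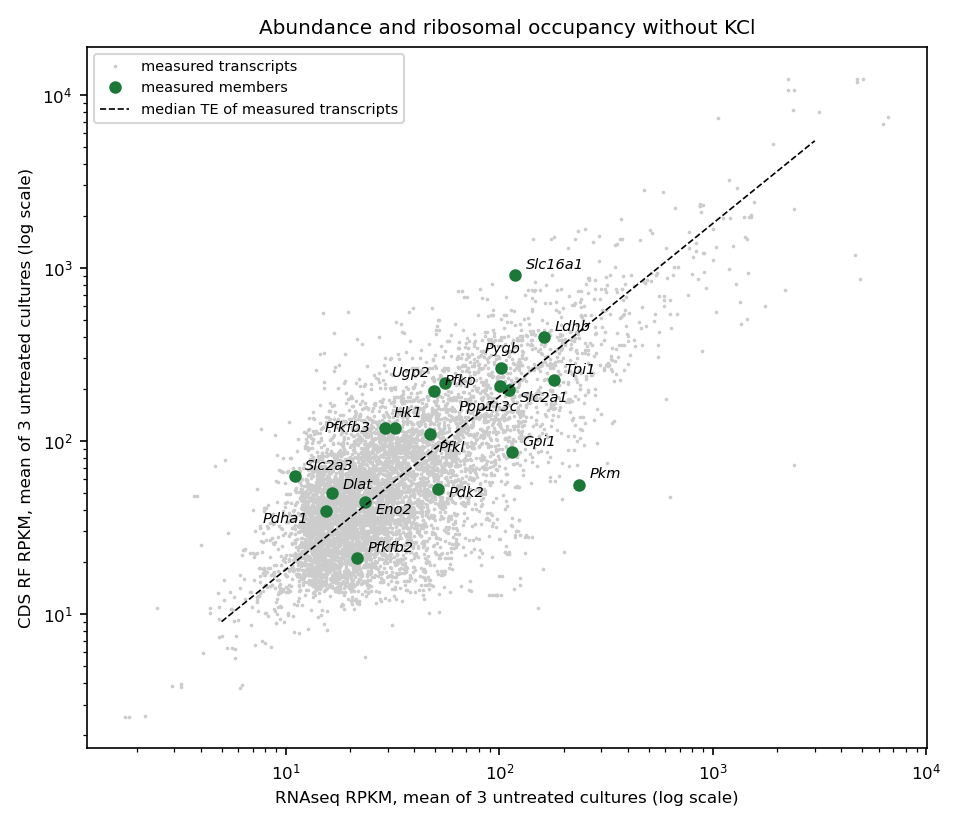
Mean CDS RF level against mean RNAseq level (RPKM, both log scales) over the 3 untreated cultures; grey points are the 7262 measured transcripts, green points the 19 measured members, and the dashed line is the median TE of 1.81. Slc16a1 and Slc2a3 lie far above the line and Pkm far below it.

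The low TE of Pkm has to be read beside the position of its reads. Of its 6304 RNAseq reads, 1.17% fell on the CDS and 88.6% on the 3′UTR, and its read density on the CDS was 0.00298 of that on the 3′UTR, where the median of 6963 measured transcripts was 0.651. In RF, Pkm had 1430 reads on the CDS and 1363 on the 5′UTR. When only CDS reads were used in RNAseq, the TE of Pkm was 6.56 ± 1.24 (SD, n = 3), at percentile 97.8. With the CDS alone the TE of Slc2a3 was 19.1 ± 8.63 and that of Pdha1 12.7 ± 3.74, and these rest on 60 and 17 CDS reads in RNAseq summed over 5 libraries. Slc16a1 kept its value with the CDS alone (7.66 ± 0.905, from 906 CDS reads). Gpi1 also had most of its RNAseq reads, 85.6%, on the 3′UTR. With the CDS alone its TE was 1.49 ± 0.136, at percentile 69.5, against percentile 9.16 with all regions. Other members also moved between all regions and the CDS alone. Tpi1 went from percentile 29.2 to 87.6 and Eno2 from 51.8 to 90.9. In the other direction, Ugp2 went from percentile 87.5 to 65.3 and Pfkp from 88.0 to 73.0.

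Several central enzymes of the pathway were not among the measured members, because no read fell on their CDS. Ldha, the muscle-type lactate dehydrogenase subunit, had 1169 to 1624 RNAseq reads per library, of which none fell on the CDS, and it had 416 RF reads on the 5′UTR and none on the CDS. Eno1, the ubiquitous enolase, had 43 RNAseq reads in all, all on the 5′UTR, and 411 RF reads there. Pgk1 and Pgam1, which encode the next enzymes after the glyceraldehyde phosphate step, had no RNAseq read in any library and 4 and 29 RF reads on the 5′UTR. A count of 0 on these CDSs does not say that the genes were silent: degenerate sequences had been taken out of the transcriptome to which reads were aligned, and the part of that step in these zeros was not tested. Pfkm, Aldoa and Pdhb had no transcript in the count files used here and were not analysed here.

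**Figure D2:**
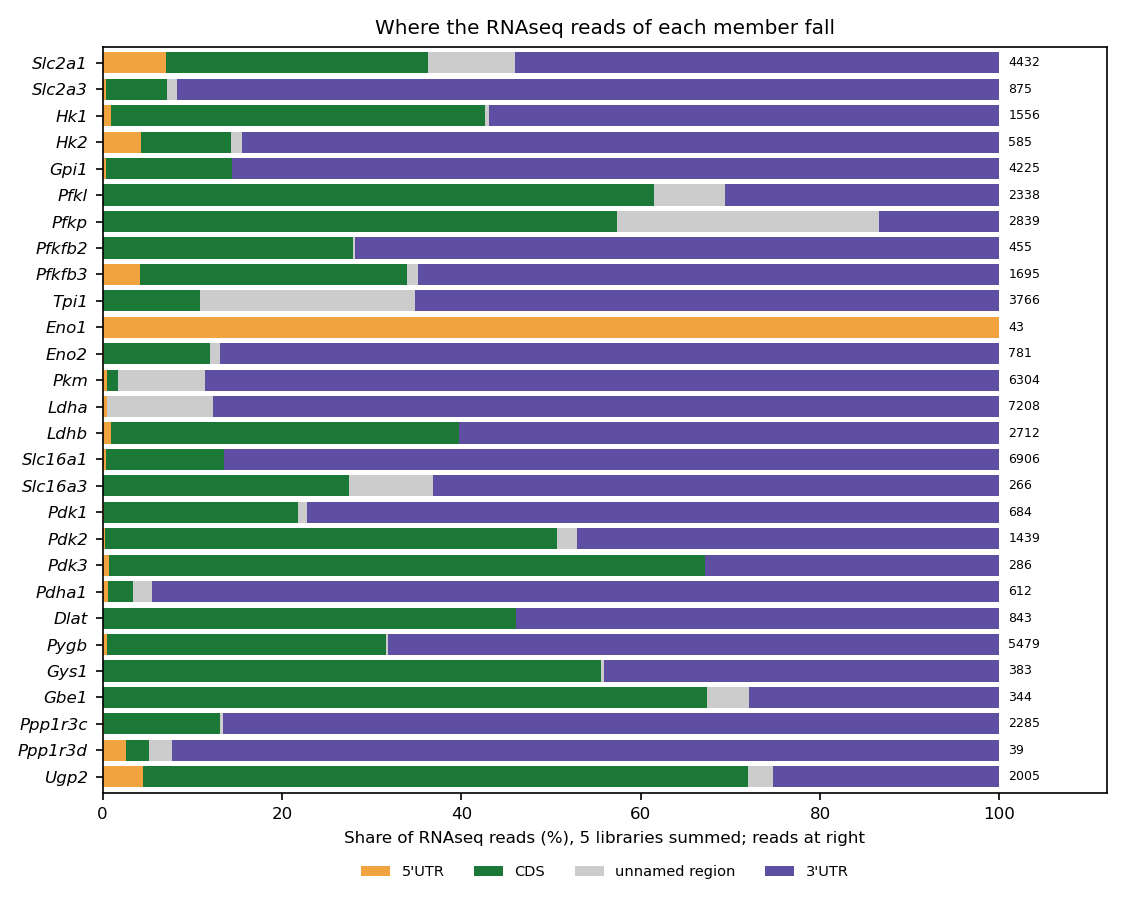
Share of RNAseq reads (%) on the 5′UTR, CDS, 3′UTR and a region that the sources used here do not name, summed over 5 libraries, for the 28 members with an RNAseq read; the number of reads stands at the right of each bar. Pkm, Ldha and Pdha1 have almost no CDS share, whereas Ugp2, Gbe1 and Pdk3 have most of their reads on the CDS.

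The remaining 7 members, Hk2, Slc16a3, Pdk1, Pdk3, Gys1, Gbe1 and Ppp1r3d, had reads in both assays but stayed below the expression minimum. Hk2, the second hexokinase, had 7.83, 10.9 and 8.97 RPKM in the untreated and 7.60 and 6.45 RPKM in the KCl RNAseq libraries. Pdk1, a pyruvate dehydrogenase kinase, lay just under the minimum, with RNAseq levels of 8.05 to 12.8 RPKM and 1 culture that passed. Slc2a3, with 9.56 to 12.6 RPKM in the untreated cultures, was also under the minimum there and passed it in the 2 KCl cultures. Ppp1r3d was the rarest, with 39 RNAseq reads over the 5 libraries.

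Next, untreated and KCl-treated cultures were compared to ask how the abundance, occupancy and TE of the members differed after KCl. KCl changed the abundance of few of them. In RNAseq 1 of 19 rose and 2 fell, against 33% of the 7262 measured transcripts called (17.9% higher and 15.1% lower). The members' median log2 fold change was 0.00, beside 0.00 over all measured transcripts. In RF 6 rose and 3 fell, against 40.9% called (20.8% higher and 20.1% lower), with a median of 0.15 beside -0.01. In TE 2 rose and 1 fell, against 5.8% called (1.53% higher and 4.27% lower), with a median of 0.09 beside 0.01. All 3 members called in RNAseq were also called in RF in the same direction. A further 6 members were called in RF with no call in RNAseq, of which Tpi1 and Ugp2 were called in TE. The other 10 were called in none of the measures. The shares of all measured transcripts with such joint calls were not computed, so these joint counts are a description only. The RNAseq groups did not overlap in 9 of 19 members, against 54.8% of all measured transcripts. These are counts over members that passed the minimum. Slc2a3 passed it through the KCl cultures alone.

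**Figure D3:**
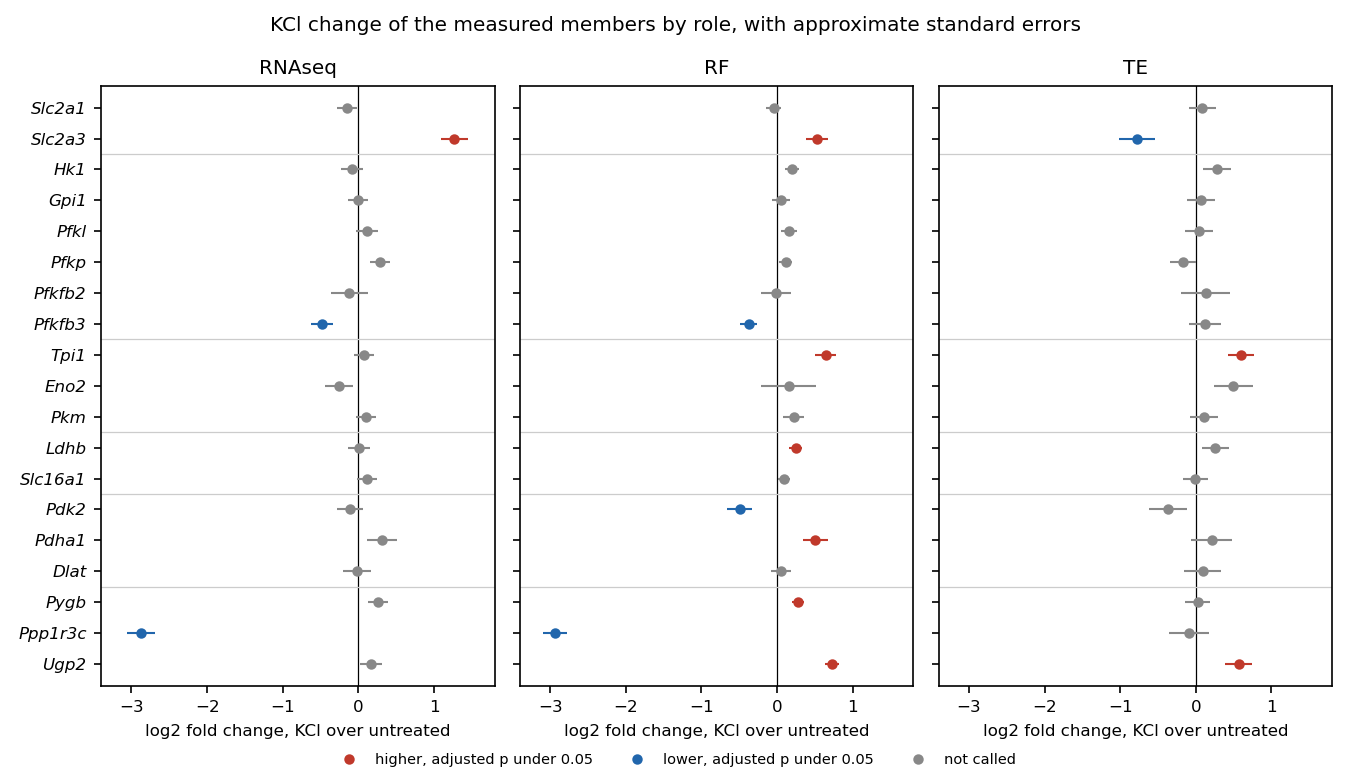
log2 fold change (KCl over untreated) of the 19 measured members in RNAseq, RF and TE, with approximate standard errors from edgeR fits; red and blue points have an adjusted p under 0.05, grey points do not, and lines separate the roles from transport (top) to glycogen (bottom). Ppp1r3c stands far to the left in RNAseq and RF at -2.88 and -2.93 and near 0 in TE.

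The largest change was that of Ppp1r3c, a subunit that brings protein phosphatase 1 to glycogen and thereby favours glycogen synthesis. The transcript has 2 exons and lies at chr19:36731731-36736653 on the minus strand (GRCm38). Its RNAseq level was 110, 91.8 and 102 RPKM in the untreated cultures and 9.80 and 17.5 RPKM in the KCl cultures. Every untreated culture stood well above both KCl cultures. The log2 fold change was -2.88 ± 0.19 (SE), which is 0.136 of the untreated level (edgeR quasi-likelihood test, adjusted p = 1.11e-15).

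The footprints of Ppp1r3c fell by a similar amount. Its RF level was 234, 208 and 185 RPKM without KCl and 24.3 and 29.8 RPKM with KCl, from 26 and 61 reads in the latter. Again the groups were widely separated, with a log2 fold change of -2.93 ± 0.16 (SE, adjusted p = 2.46e-14). The TE was 2.13, 2.27 and 1.82 without and 2.48 and 1.70 with KCl, so that the groups overlapped (log2 fold change -0.09 ± 0.27, adjusted p = 0.921). Leaving out any culture kept the fall between -3.37 and -2.54 in RNAseq and between -3.12 and -2.83 in RF.

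Marker genes of the cell types in the cultures moved less. The summed RNAseq level of 9 astrocyte markers was 3747 to 4268 RPKM in the untreated and 3285 to 3475 RPKM in the KCl cultures, with 4 of 9 lower and a median log2 fold change of -0.28. In RF 4 of them were higher and 1 was lower. Over all measured transcripts 15.1% were lower in RNAseq, and in RF 20.8% were higher and 20.1% lower. The summed level of 8 neuronal markers was 275 to 401 RPKM without and 345 to 385 RPKM with KCl. The median log2 fold change of the 4 neuronal markers that were measured was 0.17. The sum of 7 microglial markers was 167 to 180 RPKM without and 133 to 145 RPKM with KCl. For 8 markers of the oligodendrocyte lineage it was 1698 to 1912 and 1656 to 1680 RPKM. For 3 fibroblast markers it was 147 to 180 and 127 to 148 RPKM, and the 2 of them that were measured had an RF median of -0.58 (log2). The part of these cell types in the fall of Ppp1r3c was not tested.

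No other glycogen gene passed the test for a fall. Ugp2 encodes UDP-glucose pyrophosphorylase, which makes the glucose donor for glycogen synthesis, and lies at chr11:21321138-21370477 on the minus strand with 10 exons. Its RF level was 195, 233 and 221 RPKM in the untreated and 375 and 341 RPKM in the KCl cultures. Both KCl cultures were above all untreated cultures, with a log2 fold change of 0.72 ± 0.09 (SE, adjusted p = 2.97e-07). Its RNAseq level was 58.9, 56.4 and 52.4 RPKM without and 62.8 and 62.4 RPKM with KCl, a log2 fold change of 0.16 ± 0.14 that did not pass (adjusted p = 0.41).

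The TE of Ugp2 was 3.31, 4.14 and 4.22 without KCl and 5.96 and 5.46 with KCl. The groups did not overlap, and the log2 fold change of 0.57 ± 0.18 (SE) passed the test of the interaction of assay and treatment (adjusted p = 0.0295). Of the 19 measured members, 6 had TE groups that did not overlap, where 33.9% of all measured transcripts had this. The call was lost without either KCl culture, with adjusted p = 0.364 without KCl culture 4 and 0.265 without KCl culture 5, and it was also lost without untreated culture 1 (adjusted p = 0.0666). DESeq2 gave an adjusted p of 0.0991.

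Pygb, which releases glucose units from glycogen, had RF levels of 260, 255 and 279 RPKM without and 332 and 309 RPKM with KCl, a rise of 0.28 ± 0.08 (log2, SE, adjusted p = 0.00691). In RNAseq it had 99.0, 99.7 and 106 RPKM and then 107 and 136 RPKM, and the difference did not pass (0.26 ± 0.13, adjusted p = 0.12). The RF call was lost without KCl culture 4 (adjusted p = 0.151). Gys1, the glycogen synthase, and Gbe1, the branching enzyme, were below the minimum. In the fit without the minimum their RF log2 fold changes were 0.33 (adjusted p = 0.16) and -0.19 (adjusted p = 0.476), and neither passed in RNAseq. Ppp1r3d, a further glycogen-targeting subunit, had 39 RF reads over all libraries, too few for a comparison (-1.70 in RF, adjusted p = 0.141).

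Among the glucose transporters, Slc2a3 rose and Slc2a1 did not pass the test. Slc2a3 encodes GLUT3, the high-affinity carrier known from neurons, and lies at chr6:122727809-122742745 on the minus strand with 10 exons. Its RNAseq level was 12.6, 9.56 and 10.9 RPKM in the untreated and 24.7 and 28.3 RPKM in the KCl cultures. The KCl cultures were clearly above the untreated ones, with a log2 fold change of 1.27 ± 0.18 (SE), or 2.40-fold (adjusted p = 3.11e-07). Because no untreated culture passed the expression minimum, the fit without a minimum is given too, and there the log2 fold change was 1.32 (adjusted p = 1.16e-11 over 21950 transcripts, of which 19% were called).

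The footprints of Slc2a3 rose less. They were 67.3, 53.6 and 67.7 RPKM without and 73.3 and 102 RPKM with KCl. KCl culture 4 lay only just above the untreated cultures, and the log2 fold change was 0.53 ± 0.14 (SE, adjusted p = 0.00455). Without KCl culture 5 it was 0.24 (adjusted p = 0.438). The TE was 5.35, 5.60 and 6.19 without and 2.97 and 3.60 with KCl, and all untreated cultures were above both KCl cultures. Its log2 fold change was -0.78 ± 0.24 (SE, adjusted p = 0.0235). In the fit without a minimum it was -0.77 and did not pass (adjusted p = 0.0569).

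Besides the fit without a minimum, the TE call of Slc2a3 was lost without KCl culture 4 (adjusted p = 0.384), without KCl culture 5 (0.181) and without untreated culture 3 (0.108), with DESeq2 (0.103) and with CDS reads alone in RNAseq (0.081), at log2 fold changes between -1.32 and -0.65 over all alternatives. Most of its RNAseq reads, 91.7%, fell on the 3′UTR. The neuronal marker sums in RNAseq, given above with Ppp1r3c, overlapped between the groups. In RF the 4 measured neuronal markers had a median log2 fold change of 0.41. Of them 1 was higher, where 20.8% of all measured transcripts were higher. The part of these markers in the Slc2a3 values was not tested.

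Slc2a1 encodes GLUT1, the carrier of astrocytes and vessels, and had 96.6, 125 and 111 RPKM in RNAseq without and 98.1 and 102 RPKM with KCl. Its log2 fold changes were -0.15 ± 0.13 in RNAseq and -0.05 ± 0.10 in RF (SE, adjusted p = 0.426 and 0.733). The ratio of Slc2a3 to Slc2a1 in RNAseq was 0.130, 0.0763 and 0.0984 without and 0.252 and 0.277 with KCl. The groups were separate, but 3 against 2 cultures allow only 10 splits. The 2-sided exact permutation test therefore gave its smallest possible p of 0.1 (0.367 after Benjamini-Hochberg adjustment over the 11 isozyme ratios computed).

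**Figure D4:**
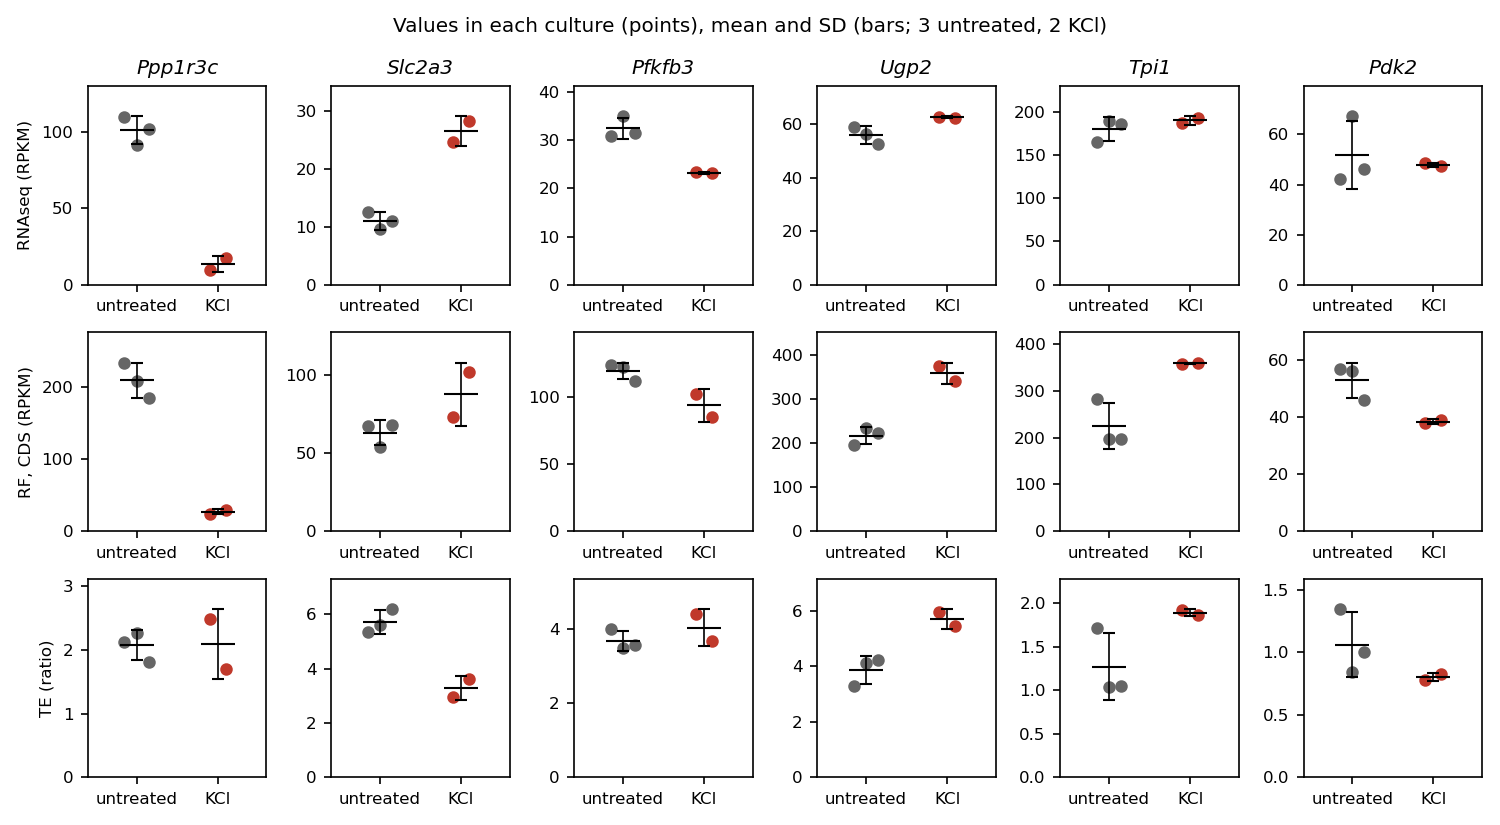
RNAseq level, CDS RF level (both RPKM) and TE in each culture for 6 members; grey points are the 3 untreated and red points the 2 KCl cultures, and bars give the mean and SD. Ppp1r3c falls and Slc2a3 rises in RNAseq and RF, Ugp2 and Tpi1 are higher in RF at similar RNAseq levels, and untreated culture 1 of Tpi1 lies near the KCl cultures in TE (1.72 against 1.87 and 1.92).

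In upper glycolysis 1 of 6 measured members changed. Pfkfb3 encodes the 6-phosphofructo-2-kinase/fructose-2,6-bisphosphatase known for its high kinase activity, whose product stimulates phosphofructokinase, and lies at chr2:11471826-11502101 on the minus strand. Its RNAseq level was 30.9, 34.9 and 31.5 RPKM without and 23.3 and 23.1 RPKM with KCl. Both KCl cultures were below all untreated ones, with a log2 fold change of -0.48 ± 0.15 (SE, adjusted p = 0.0105). Its RF level was 124, 122 and 112 RPKM and then 103 and 85.0 RPKM, a log2 fold change of -0.38 ± 0.12 (adjusted p = 0.0102), and the TE did not pass (0.12 ± 0.21, adjusted p = 0.841).

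The Pfkfb3 change was the smallest of the RNAseq calls and the least secure. It was lost without untreated culture 2 (adjusted p = 0.053), without KCl culture 4 (0.0741), without KCl culture 5 (0.0922) and with CDS reads alone (0.0975). In RF it was lost without KCl culture 5 (-0.23, adjusted p = 0.328). Its 3 transcripts in the files share reads and are not independent of each other.

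The other upper glycolytic members did not pass in any measure. Hk1 had a log2 fold change of -0.09 ± 0.15 in RNAseq and 0.20 ± 0.09 in RF (SE), and its RF value passed only in the fit without a minimum (0.27, adjusted p = 0.0267). Gpi1 gave 0.00 and 0.05 and the liver-type phosphofructokinase gene Pfkl 0.11 and 0.15 in RNAseq and RF. Pfkp, the platelet-type phosphofructokinase, had 47.8 to 51.4 RPKM in RNAseq without and 58.6 and 61.6 RPKM with KCl. These groups were separate, but its log2 fold change of 0.28 ± 0.13 passed only where all 10 libraries entered a single fit (adjusted p = 0.105, and 0.0466 in the single fit). Pfkfb2 gave -0.12 in RNAseq and -0.01 in RF, and its RNAseq level ranged widely among the untreated cultures (31.3, 18.1 and 15.4 RPKM).

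In lower glycolysis Tpi1 rose in RF and TE. Tpi1, which interconverts the triose phosphates, lies at chr6:124810586-124814296 on the minus strand with 7 exons. Its RF level was 283, 198 and 196 RPKM in the untreated and 359 and 360 RPKM in the KCl cultures. The KCl cultures were closely alike and above all untreated ones, of which culture 1 was the highest, and the log2 fold change was 0.64 ± 0.14 (SE, adjusted p = 0.00175). The RNAseq levels overlapped, at 164, 190 and 186 RPKM and then 186 and 193 RPKM (0.08 ± 0.13, adjusted p = 0.69).

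The TE of Tpi1 was 1.72, 1.05 and 1.06 without and 1.92 and 1.87 with KCl. Its log2 fold change of 0.60 ± 0.18 (SE) had an adjusted p of 0.0189. The call was lost without untreated culture 2 (adjusted p = 0.141), without untreated culture 3 (0.162), without KCl culture 4 (0.239), without KCl culture 5 (0.286) and with DESeq2 (0.16). Without untreated culture 1, the log2 fold change was 0.86.

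Eno2, the neuronal enolase, had RF levels of 64.9, 29.5 and 39.6 RPKM without and 45.8 and 54.9 RPKM with KCl. Untreated culture 1 was above both KCl cultures and the other two were below them, and the difference did not pass (0.15 ± 0.37, SE, adjusted p = 0.78). Without untreated culture 1 it was 0.66 (adjusted p = 0.00883). Pkm gave 0.10 ± 0.13 in RNAseq and 0.22 ± 0.14 in RF, and neither passed (adjusted p = 0.584 and 0.205).

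Of the lactate genes, Ldhb rose slightly in RF. Its RF level was 426, 388 and 385 RPKM without and 494 and 462 RPKM with KCl, with a log2 fold change of 0.25 ± 0.09 (SE, adjusted p = 0.0235), while the RNAseq levels overlapped (0.00 ± 0.14, adjusted p = 0.99). The RF call of Ldhb was lost without untreated culture 3 (adjusted p = 0.0575) and with DESeq2 (0.0535). It was also lost with counts summed over all transcripts of a gene (0.0643) and with all 10 libraries in a single fit (0.0922). Its log2 fold change was 0.20 without KCl culture 4 and 0.30 without KCl culture 5, where 1 KCl culture was left. Slc16a1 kept overlapping levels, with log2 fold changes of 0.12 ± 0.13 in RNAseq and 0.09 ± 0.08 in RF (SE, adjusted p = 0.551 and 0.352). For Ldha only the RNAseq reads outside the CDS could be compared. They gave 0.13 in the fit without a minimum (adjusted p = 0.582). The ratio of Ldhb to Ldha in RNAseq overlapped between the groups. Its mean was 0.470 ± 0.0508 in 3 untreated and 0.444 ± 0.0871 in 2 KCl cultures (SD). Ldha was scaled to its whole 1588 nt although the 996 nt of its CDS held no read. The ratio therefore compares unlike parts of the transcripts and is not a ratio of isozyme levels. Slc16a3, the carrier MCT4, passed in neither assay without the minimum (-0.13 and 0.24, adjusted p = 0.798 and 0.425).

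Of the pyruvate dehydrogenase genes, 1 rose and 1 fell in RF. Pdha1, the catalytic alpha subunit, rose from 39.8, 35.9 and 42.4 RPKM to 63.1 and 49.2 RPKM, a log2 fold change of 0.50 ± 0.16 (SE, adjusted p = 0.0152). Pdk2, a kinase that inactivates the complex, fell in RF from 56.9, 56.4 and 46.0 RPKM to 37.9 and 39.1 RPKM, a log2 fold change of -0.50 ± 0.16 (adjusted p = 0.0161). In both genes the RF groups were separate. Of the 19 measured members 11 had RF groups that did not overlap, against 61.3% of all measured transcripts.

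Neither gene passed in RNAseq, where Pdha1 gave 0.31 ± 0.19 and Pdk2 -0.11 ± 0.17 (SE, adjusted p = 0.228 and 0.643), or in TE (0.21 and -0.37, adjusted p = 0.775 and 0.47). The RF call of Pdha1 was lost without KCl culture 4 (adjusted p = 0.23). That of Pdk2 was lost without KCl culture 4 (0.0983), KCl culture 5 (0.132) or untreated culture 1 (0.0505), and both were lost with DESeq2 (0.0594 and 0.0763).

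A second kinase gene, Pdk1, had RF levels of 41.9, 51.6 and 36.0 RPKM without and 29.4 and 27.8 RPKM with KCl. It was below the expression minimum, and the fit without a minimum gave -0.58 (adjusted p = 0.00902, where 25.9% of 20864 transcripts were called in RF). Pdk3 did not pass (0.03, adjusted p = 0.924), nor did the pyruvate dehydrogenase E2 subunit gene Dlat, which was measured (0.05 ± 0.14, SE, adjusted p = 0.798).

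Further genes of the pathway that are not among the 33 were counted in the same fits. Of 75 listed, 59 had a transcript in the files and 19 were measured. In RNAseq 1 rose and 4 fell, where 33% of all measured transcripts were called, and in RF 6 rose and 1 fell, where 40.9% were called. In TE, where 5.8% were called, none passed with edgeR, where 2 had an unadjusted p under 0.05, and none passed with DESeq2. Bpgm, which makes 2,3-bisphosphoglycerate, rose by 0.58 ± 0.15 in RNAseq (log2, SE, adjusted p = 0.00196). The largest falls were those of Pdp1, a phosphatase that activates pyruvate dehydrogenase (-0.96 ± 0.18), of Gpd1, the cytosolic glycerol 3-phosphate dehydrogenase (-0.88 ± 0.19), and of Dld, the E3 subunit of pyruvate dehydrogenase (-0.52 ± 0.18), with adjusted p = 5.9e-05, 0.000367 and 0.0225.

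Many glycolytic genes are known targets of the hypoxia-inducible factor (HIF), so a list of HIF targets outside the pathway was read from the same fits. Of 22 listed, 14 were measured, of which 5 rose and 2 fell in RNAseq, 5 rose and 2 fell in RF, and 1 fell in TE. Over all measured transcripts 33%, 40.9% and 5.8% were called in the same order. Their median log2 fold change was 0.17 in RNAseq and 0.16 in RF. The members' own medians were 0.00 and 0.15.

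The promoters of the members were searched for short motifs in RefSeq windows of GRCm38.p6 that reach from 250 bases before to 50 bases after each start site. Of the 33 genes 32 were matched, with 48 windows, and Slc2a3 was not in the table. The core of the hypoxia response element, ACGTG or GCGTG on either strand, was in 35 of 48 windows (72.9%), against 43.8% of 32851 windows of all genes. The E-box CACGTG, which contains ACGTG, was in 16.7% of the members' windows against 7.15%, and the cAMP response element TGACGTCA in 2.08% against 1.79%. A match is a description of letters and not of a bound site. The windows of all genes were not matched to those of the members for expression or base content.

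The E-box windows of Pfkfb3 and Ppp1r3c, the 2 members that fell in RNAseq, are shown with the E-box in capitals, on the minus strand at chr2:11502129-11502152 and chr19:36736694-36736717.
Pfkfb3: ccttctctcCACGTGaaagggggc
Ppp1r3c: ggaccggttCACGTGatctggctt
Both genes also hold the HRE core, through the E-box at the least. The same E-box letters were in the windows of Ldha, Pdk2, Pfkfb2, Pfkm, Ppp1r3d and Slc16a1. None of the measured ones among them passed in RNAseq, with log2 fold changes of -0.11 for Pdk2, -0.12 for Pfkfb2 and 0.12 for Slc16a1.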

How the data were processed

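RNAseq and RF libraries came from the same 5 lysates (3 untreated, 2 KCl). Per the labels and the study's methods, the authors trimmed reads (Trimmomatic 0.32), took out rRNA reads found by STAR 2.3.1z8, aligned the rest with Bowtie2 2.2.2 to an Ensembl mouse transcriptome freed of degenerate sequence, kept reads that map to several places, and counted with bedtools 2.20.1. The deposited values are raw read counts per Ensembl transcript and region (5′UTR, CDS, 3′UTR and a region the sources used here do not name), without normalization. Reads that fit several isoforms were counted on each, so isoforms are not independent. For TE the study omitted bases flanking the start and stop codons; the deposited region counts were used whole here, and whether they already lack those bases is not given in the sources used here.

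Of 22534 transcripts, 98.4% matched GENCODE M21. Libraries were scaled by TMM over the measured transcripts. RNAseq (all regions) and RF (CDS) were each tested with edgeR 4.0.16 (R 4.3.3), quasi-likelihood test with robust dispersions and Benjamini-Hochberg adjustment over 7262 transcripts. For TE, the assay-by-treatment interaction was tested in a model of all 10 libraries that held culture as a blocking factor, because equally numbered RNAseq and RF libraries are portions of 1 lysate; the correlation of their deviations from group means was -0.0711 to 0.0628. The standard error is the absolute log2 fold change over the square root of F, an approximation. p-values measure the spread between these numbered cultures. Scripts were tested on simulated counts. Alternatives were DESeq2 1.42.0, library totals, joint TMM, no minimum, 100 reads in every library, gene sums and CDS reads in RNAseq. Further alternatives were a single fit, no block, leaving out each culture, and the transcript of each gene with the highest mean RNAseq RPKM.

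The members, lists and tests were chosen with earlier results of these data known. Values in every culture were given for members called in TE and for up to 6 rises and 6 falls in RNAseq or RF, and also for some others named after their values were seen; of the other pathway genes the 3 largest rises and falls in RNAseq were named.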

Additional observations from a re-analysis of the deposited data

How the results depend on the processing

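No called value of a member changed direction under those of the 15 alternatives that gave it a value; at 100 reads in every library some members were not tested, and the fit without the block was run for TE alone. Without the replicate block, the number of members changed in TE was 3, as with it, and the pairing changed no call. The count of members changed in RNAseq was 2 to 3 with each culture left out and 1 at 100 reads in every library, where 12 members were tested and neither Ppp1r3c nor Slc2a3 was. The count in RF was 5 to 9 with each culture left out (5 without either KCl culture) and 3 at 100 reads. The count in TE was 0 to 2 with each culture left out (0 without either KCl culture, 1 without untreated culture 3), 0 with DESeq2 and at 100 reads, and 1 without a minimum and with gene sums. The other pathway and HIF genes changed in TE went from 1 to 0 without a minimum. The members' median baseline TE, that of Ldhb in both cases, was 2.13 with CDS reads alone in RNAseq, against 2.48. These values are on different scales. Among the measured transcripts they lay at percentile 82.2 and 67.4, so the lower value was not a lower standing. Library totals in place of TMM moved the RF median of all transcripts by -0.13 (log2), and the RF calls of Ldhb, Pdha1 and Pygb were then lost (adjusted p = 0.294, 0.0683 and 0.152). The TE calls of Slc2a3 and Ugp2 were lost without a minimum (adjusted p = 0.0569 and 0.0647), and that of Ugp2 with library totals (0.0503). At 100 reads in every library, Ldhb and Pygb were tested in RF and did not pass (adjusted p = 0.217 and 0.108). Tpi1 and Ugp2 were tested there in TE and did not pass (adjusted p = 0.051 and 0.076). The cause of the lost calls was not tested. Depth limits the rarer members most: the KCl RF libraries held 26 and 61 reads of Ppp1r3c, and 3 against 2 cultures leave an exact test of a single value no p under 0.1.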

Other observations

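The following genes are outside the rule for named genes and were chosen after their values were seen. In the edgeR fit without a minimum, 3 pathway genes below the expression minimum had an adjusted p under 0.05 in RNAseq. That fit called 19% of 21950 transcripts, so calls of this kind were common. Pygm, the muscle form of glycogen phosphorylase, had 7, 0 and 2 RNAseq reads without KCl, and 23 and 26 reads with KCl, with a log2 fold change of 3.01 ± 0.60 (SE, adjusted p = 1.07e-05), and its RF value did not pass (0.34, adjusted p = 0.73). Slc16a6, a member of the monocarboxylate carrier family, had 68, 73 and 45 reads and then 11 and 25, a log2 fold change of -1.75 ± 0.33 in RNAseq and -1.59 ± 0.29 in RF. Slc2a13, the proton myo-inositol carrier, had 104, 90 and 78 reads and then 41 and 49, with -0.98 ± 0.26 in RNAseq (adjusted p = 0.00179) and -0.26 ± 0.19 in RF (adjusted p = 0.353). The HIF target that fell in TE was Bhlhe40, a circadian transcription repressor, with -0.48 ± 0.16 in RNAseq and -1.23 ± 0.16 in RF (log2, SE).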
